A study of Mus musculus with 6 samples.

Results

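The urea cycle and the breakdown of amino acids were followed through 37 genes of liver enzymes, taken by gene name from a table of 56534 genes or loci. All 37 names were found once each in the table. The knockout livers carried a hepatocyte-specific knockout of CD36 (genotype label CD36-/-, called LKO here, 3 libraries), and the livers they were set against were wild type (CON, 3 libraries). CD36 sits at the cell surface, where it binds long-chain fatty acids and helps them into the cell. All mice were of strain C57BL/6, and all had been fed for 16 weeks on a diet with 60% of its energy as fat. No group on another diet is part of the comparison. The sources used here name no Cre driver, sex, age or time of collection. Nothing in the labels tells whether each library is another mouse, and p-values therefore measure only library-to-library spread, which may be technical. Whole-liver RNA was sequenced, and the deposited values are FPKM (fragments scaled for gene length and for the size of each library), which makes levels comparable between genes of different length. Values of a gene are given in the order library 1, library 2, library 3.

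As background, amino acids are stripped of their nitrogen mainly in the liver. Aminotransferases collect the amino groups on glutamate, glutamate dehydrogenase and glutaminase release ammonia, and the urea cycle fixes it in the mitochondrion and finishes the synthesis of urea in the cytosol. Carbon skeletons of histidine, tyrosine, tryptophan, lysine, the branched-chain amino acids and proline pass through pathways of their own, and methionine is turned into S-adenosylmethionine, homocysteine and cysteine. Many of these enzymes are made at higher levels by hepatocytes near the portal vein, and many are induced by glucagon and glucocorticoids.

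Cd36 itself, the deleted gene, was at 2.73, 3.70 and 10.2 FPKM in the LKO livers, against 62.0, 26.5 and 19.7 FPKM in the CON livers, without overlap (log2 fold change -2.50, SE 0.51, adjusted p = 0.163, limma). LKO 3 stood apart from the other LKO libraries. On the log2 scale over all tested genes its Pearson correlation was 0.949 and 0.934 with LKO 1 and LKO 2, and 0.952 to 0.976 with the CON libraries, while LKO 1 and LKO 2 correlated at 0.977 with each other. Libraries also differed in how values depended on gene length, with a Spearman rho between length and deviation from the gene mean of -0.327 and -0.30 in LKO 1 and LKO 2, 0.208 in LKO 3 and 0.0984 to 0.287 in the CON libraries. The major urinary proteins took 23.9% to 29.4% of the summed FPKM in LKO and 6.22% to 22.1% in CON. Mitochondrially encoded genes took 5.27%, 10.15% and 4.14% in LKO 1, LKO 2 and LKO 3, and 3.88% to 6.18% in CON. Hepatocyte markers (Alb, Ttr, Apoa1 and Apob, all 4 detected) summed to 39104 to 47173 FPKM in LKO and 42237 to 62494 FPKM in CON, a sum whose parts differed in sign. Apoa1 averaged 18211 ± 2224 FPKM in LKO and 11078 ± 1431 FPKM in CON, without overlap (log2 fold change 0.72, adjusted p = 0.196, limma), and Alb 20178 ± 5656 FPKM in LKO and 33079 ± 11126 FPKM in CON, with overlap (log2 fold change -0.70, adjusted p = 0.266, limma; SD, n = 3 each). Of the markers of other cells, those of Kupffer cells (7 of 7 detected) summed to 86.6 to 176 FPKM in LKO and 115 to 169.9 FPKM in CON, those of sinusoidal endothelium (5 of 5) to 34.9 to 48.1 FPKM in LKO and 26.8 to 76.8 FPKM in CON, and those of bile duct cells (4 of 4) to 33.0 to 74.1 FPKM in LKO and 28.6 to 50.3 FPKM in CON. Stellate markers (5 of 5) summed to 75.6 to 110.2 FPKM in LKO and 80.95 to 84.3 FPKM in CON, and red cell markers (3 of 3) to 136 to 299 FPKM in LKO and 88.0 to 547 FPKM in CON. The marker lists of T and B cells and of adipocytes each summed to at most 2.12 FPKM in LKO and 1.42 FPKM in CON. Of the pancreatic genes, Cela1 was at 41.5 to 49.1 FPKM in LKO and 30.8 to 41.7 FPKM in CON, while Cpa1 and Prss2 and the kidney genes Umod and Slc34a1 were at 0 in every library. The part of these differences in the results below was not tested.

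The enzymes of nitrogen disposal sat mostly lower in the LKO livers, but no member passed the test over all genes. Of the 37 members, 31 had a negative log2 fold change, 83.8% of them, where 71.6% of all tested genes were negative. The median of the members was -0.45, against -0.23 for all 11104 tested genes. At an adjusted p under 0.05 (limma, Benjamini-Hochberg over all tested genes), 0 members were called lower and 0 higher, where 0.00901% of all genes were called lower and 0% higher. At an unadjusted p under 0.05, 12 members were lower and 0 higher, against 18.9% and 3.25% of all genes. All LKO values were under all CON values for 13 members, 35.1% of them, where this held for 24.3% of all genes, and the reverse held for 0 members and 3.92% of all genes. In bulk liver RNA, fewer hepatocytes and less RNA per hepatocyte cannot be told apart. The smallest adjusted p of a member was 0.179 (Tdo2).

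The size of this lean depended on how the libraries were scaled. After median-ratio scaling, which sets the typical gene equal in every library and moved the median of all genes to -0.012, the median of the members was -0.19, and 24 of 37 were negative where 51.4% of all genes were. Again 0 members were called, and 4 were lower and 1 higher at an unadjusted p under 0.05 (limma), where 8.37% and 9.64% of all genes were. The 37 genes together summed to 11944, 11548 and 11672 FPKM in LKO, and 17905, 16419 and 12729 FPKM in CON. As shares of the summed FPKM of each library these were 1.01%, 0.908% and 1.22% in LKO, and 2.15%, 1.77% and 1.30% in CON. The shares also carry a difference in that total, which was 959441.5 to 1271879.8 FPKM in LKO and 831927.8 to 976871.1 FPKM in CON. Their mean levels over all libraries ran from 9.80 FPKM (Sdsl) to 1693 FPKM (Bhmt), and 15 of them were among the 500 most highly expressed genes.

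The module also varied within each group. CON 1 was the highest of all libraries for 26 members (40.2% of all genes), and CON 1 lay above CON 2 and CON 2 above CON 3 for 29 members, 78.4% of them, where this order held for 19.6% of all genes. Relative to the mean of the CON livers on the log2 scale, the median member was at -0.39, -0.46 and -0.39 in the LKO libraries and at 0.21, 0.026 and -0.27 in the CON libraries. The same median over all genes was at -0.21, -0.38 and -0.11 in LKO and 0.079, -0.085 and 0.0066 in CON. In these genes CON 3 was the CON library nearest to LKO. The lowest library was LKO 2, which also had the highest mitochondrial share, for 15 members (48.6% of all genes) and LKO 3 for 14 (15.6% of all genes). LKO 1 and LKO 2 were both below every CON library for 18 members, where this held for 46.6% of all genes. LKO 3 reached the lowest CON value for 11 members, 29.7% of them, where it did so for 59.3% of all genes.

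**Figure D1:**
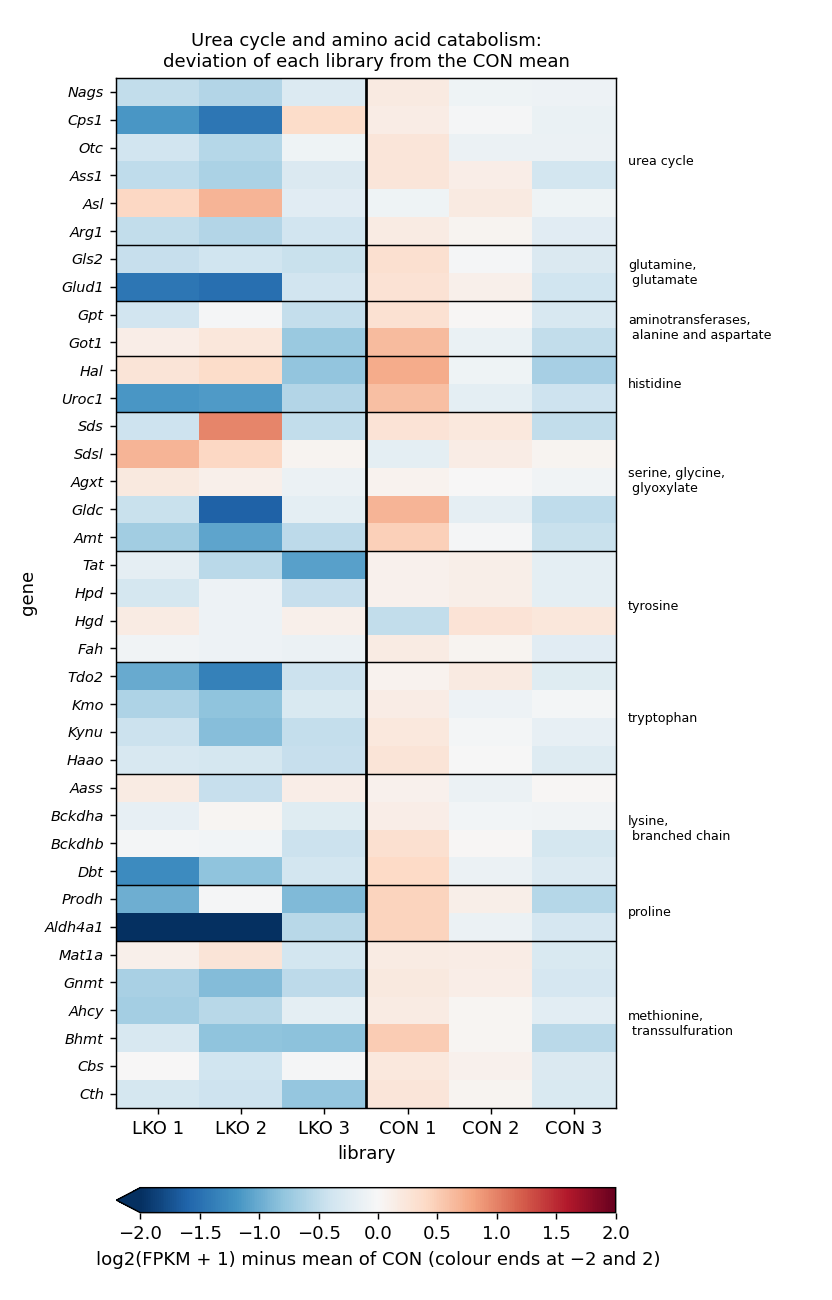
Deviation of each library from the CON mean, in log2(FPKM + 1), for the 37 genes (rows, grouped by pathway) in the LKO libraries (left) and the CON libraries (right). Blue is lower and red higher than the CON mean. Cps1, Glud1, Tdo2 and Aldh4a1 are blue in LKO 1 and LKO 2, and Cps1 is not in LKO 3. Asl and Sdsl are red in LKO 1 and LKO 2.

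The members with the smallest unadjusted p were Tdo2, Aldh4a1, Glud1 and Uroc1, and the 250 bases before their starts are shown for that reason. Sequences and starts are those of RefSeq on GRCm38.p6, a later build than the mm9 of the expression values, and are printed 5′ to 3′ on the strand of the gene. Capitals mark matches to any of 4 short motifs, searched on both strands.
Tdo2, chr3:81975729-81975978, minus strand: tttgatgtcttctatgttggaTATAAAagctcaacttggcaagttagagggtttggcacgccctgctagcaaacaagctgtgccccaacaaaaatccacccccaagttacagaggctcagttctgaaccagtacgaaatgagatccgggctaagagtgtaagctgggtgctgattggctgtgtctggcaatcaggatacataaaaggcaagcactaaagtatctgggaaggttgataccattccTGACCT
Aldh4a1, chr4:139622644-139622893, plus strand: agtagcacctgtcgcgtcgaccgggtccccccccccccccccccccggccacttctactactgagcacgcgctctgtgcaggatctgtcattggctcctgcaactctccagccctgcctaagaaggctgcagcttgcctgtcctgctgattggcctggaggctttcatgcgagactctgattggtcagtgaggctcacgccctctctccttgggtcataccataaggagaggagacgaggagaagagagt
Glud1, chr14:34310477-34310726, plus strand: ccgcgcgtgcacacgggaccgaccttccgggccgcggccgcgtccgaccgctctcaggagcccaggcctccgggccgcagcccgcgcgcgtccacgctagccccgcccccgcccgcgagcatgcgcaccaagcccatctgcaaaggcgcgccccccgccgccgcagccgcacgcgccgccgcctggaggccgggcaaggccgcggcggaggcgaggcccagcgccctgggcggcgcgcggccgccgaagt
Uroc1, chr6:90333039-90333288, plus strand: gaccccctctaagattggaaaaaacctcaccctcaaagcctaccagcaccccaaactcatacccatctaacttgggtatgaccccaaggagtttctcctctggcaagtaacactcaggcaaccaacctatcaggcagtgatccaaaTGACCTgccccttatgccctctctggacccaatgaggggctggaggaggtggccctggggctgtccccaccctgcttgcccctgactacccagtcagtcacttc
The motif of the TATA box was searched as TATAAA, and the core of the cAMP response element as TGACG. The palindrome of the C/EBP factors, with a free centre, was searched as TTGCNNAA, and the hexamer bound by nuclear receptors as AGGTCA. Tdo2 held TATAAA from -229 to -224 and AGGTCA on the other strand, next to its start, and Uroc1 held AGGTCA on the other strand from -104 to -99. Aldh4a1 and Glud1 held none of these letters in this window. The windows also differed in base composition, with a GC content of 46.4% in Tdo2, 60.8% in Aldh4a1, 82.0% in Glud1 and 55.6% in Uroc1. Over the 26 of 37 members with an entry in the table, AGGTCA was present in 12 (46.2%), where 14.0% of all 32851 promoter windows held it. TATAAA was present in 3 members (11.5%, against 12.4% of all windows), TTGCNNAA in 3 (11.5%, against 9.56%) and TGACG in 1 (3.85%, against 17.8%). These are matches of letters and not tests of binding. The windows of all genes were not limited to genes expressed in liver, so these shares do not set the members against other liver genes.

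Within the urea cycle, 5 of 6 enzymes had a negative log2 fold change (median -0.46), and none passed. Cps1, the mitochondrial carbamoyl phosphate synthetase that brings ammonia into the cycle, was at 193, 159 and 560.4 FPKM in LKO, against 482, 426 and 397 FPKM in CON. LKO 1 and LKO 2 were below every CON library and LKO 3 was above every one, so that the mean of 304 ± 223 FPKM in LKO and 435 ± 43.0 FPKM in CON (SD, n = 3 each) joins an LKO 3 value 3.18 times the mean of LKO 1 and LKO 2. Its log2 fold change was -0.74 (SE 0.44, adjusted p = 0.319, limma). Without LKO 3 it was -1.30 (adjusted p = 0.0141, limma, in a range of 0.00265 to 0.672 over all alternatives). Nags, the synthase of the N-acetylglutamate that activates this enzyme, was at 22.4, 20.8 and 26.1 FPKM in LKO and 36.1, 30.0 and 29.6 FPKM in CON. All 3 LKO values were below the CON range, at a log2 fold change of -0.45 (SE 0.17, adjusted p = 0.206, limma). Otc, the ornithine transcarbamylase that forms citrulline, was at 118, 103 and 144 FPKM in LKO, against 183, 142 and 141 FPKM in CON, and LKO 3 lay within the CON range.

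In the cytosolic part of the cycle the enzymes did not all lean one way. Ass1, the argininosuccinate synthetase, was at 859, 789 and 1001 FPKM in LKO and 1436, 1333 and 948 FPKM in CON, with LKO 3 above CON 3. Asl, the lyase that splits its product into arginine and fumarate, was at 336, 401.5 and 215 FPKM in LKO, against 237, 284 and 237 FPKM in CON. LKO 1 and LKO 2 were above every CON library and LKO 3 below every one, the opposite order to Cps1. The log2 fold change of Asl was 0.29 (SE 0.26, 95% interval -0.31 to 0.88, adjusted p = 0.487, limma). Arg1, the arginase that releases urea, was at 510.4, 476 and 548 FPKM in LKO and 801, 747 and 614 FPKM in CON. Its groups did not overlap, at a log2 fold change of -0.49 (SE 0.19, adjusted p = 0.207, limma), which was -0.22 after median-ratio scaling.

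**Figure D2:**
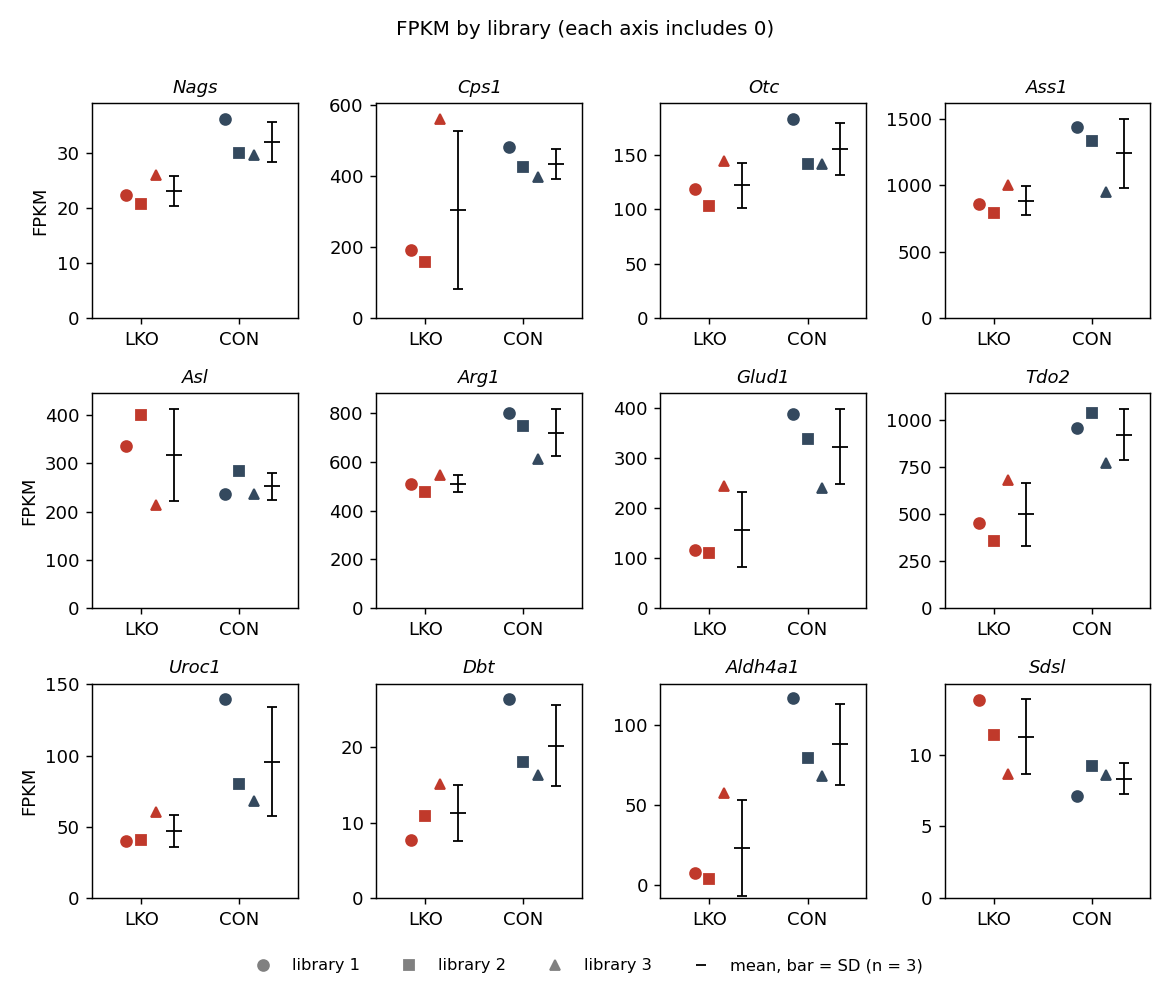
FPKM in each library for the 6 urea cycle enzymes and 6 further members, LKO (red) left of CON (dark), with the mean and SD of 3 libraries beside the points. For Cps1 the LKO 3 point at 560.4 FPKM lies above all CON points while LKO 1 and LKO 2 lie at 193 and 159 FPKM, and for Aldh4a1 the LKO 1 and LKO 2 points lie at 7.63 and 4.15 FPKM against 68.0 FPKM or more in CON.

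Among the enzymes that release ammonia, Glud1, the mitochondrial glutamate dehydrogenase, was at 115, 111 and 243 FPKM in LKO and 388, 339 and 241 FPKM in CON. LKO 1 and LKO 2 lay below every CON library, and LKO 3 lay just above CON 3. The log2 fold change was -1.11 (SE 0.34, adjusted p = 0.180, limma), and -1.48 without LKO 3 (adjusted p = 0.0166, limma, in a range of 0.00149 to 0.486 over all alternatives). Gls2, the liver glutaminase, was steady inside LKO, at 79.8, 83.0 and 80.85 FPKM, against 137, 108 and 89.4 FPKM in CON. The groups did not overlap, and the spread was wider in CON (log2 fold change -0.43, SE 0.20, adjusted p = 0.238, limma). Of the aminotransferases, Gpt (alanine aminotransferase) was at 124, 160.0 and 116 FPKM in LKO and 201, 166 and 130.3 FPKM in CON. Got1, the cytosolic aspartate aminotransferase, was at 66.2, 71.0 and 35.9 FPKM in LKO and 93.7, 54.9 and 42.7 FPKM in CON. Both overlapped between the groups, and Got1 had a 95% interval of -0.95 to 0.70 around its log2 fold change of -0.13, which was 0.14 after median-ratio scaling.

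Of the histidine pathway, 1 of 2 enzymes was without overlap between the groups. Hal, the ammonia-lyase that opens the pathway, was at 63.8, 69.5 and 30.4 FPKM in LKO and 90.1, 50.3 and 33.55 FPKM in CON, which overlapped, with LKO 3 the lowest library (log2 fold change -0.056, SE 0.42, adjusted p = 0.945, limma, and a log2 fold change of 0.21 after median-ratio scaling). Uroc1, the urocanate hydratase of the next step, was at 40.4, 40.9 and 60.4 FPKM in LKO and 139, 80.0 and 68.1 FPKM in CON. Every LKO library was below every CON library, and the means of 47.2 ± 11.4 FPKM in LKO and 95.8 ± 38.2 FPKM in CON (SD, n = 3 each) differed 2.03-fold. Its log2 fold change was -0.96 (SE 0.30, adjusted p = 0.182, limma), and -0.70 after median-ratio scaling.

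All 4 enzymes of tryptophan breakdown in the module were without overlap between the groups, which held for no other of the 10 pathways. The count is to be read against the 24.3% of all genes given above, and none of the 4 passed over all genes. Outside the module, Ido2 (log2 fold change -0.96) was also without overlap. Afmid (-1.02), Acmsd (0.26) and Aadat (0.099), also of tryptophan breakdown, overlapped between the groups. Tdo2, the tryptophan dioxygenase of hepatocytes that opens the kynurenine pathway, was at 456, 359.6 and 683 FPKM in LKO and 958, 1038 and 773 FPKM in CON. The lowest CON library stood above LKO 3, the highest LKO library, and the means differed 1.85-fold (log2 fold change -0.93, SE 0.27, adjusted p = 0.179, limma). Kynu, the kynureninase, was at 53.7, 39.8 and 52.3 FPKM in LKO and 84.0, 70.7 and 65.0 FPKM in CON (log2 fold change -0.59, SE 0.19, adjusted p = 0.187, limma). Kmo, the kynurenine monooxygenase, averaged 82.7 ± 14.8 FPKM in LKO and 123 ± 11.8 FPKM in CON, and Haao, the hydroxyanthranilate dioxygenase, 211 ± 11.1 FPKM in LKO and 276 ± 48.2 FPKM in CON (SD, n = 3 each). After median-ratio scaling the log2 fold changes of Tdo2, Kynu, Kmo and Haao were -0.66, -0.32, -0.31 and -0.11.

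In tyrosine breakdown, 3 of 4 enzymes had a negative log2 fold change, 2 of 4 after median-ratio scaling, and all 4 overlapped between the groups. Tat, the tyrosine aminotransferase induced by glucocorticoids, was at 513, 399 and 272 FPKM in LKO and 613, 628 and 505 FPKM in CON. Here LKO 3 was the lowest library, and only LKO 1 reached the CON range (log2 fold change -0.60, SE 0.26, adjusted p = 0.226, limma). Hpd, the hydroxyphenylpyruvate dioxygenase, was at 1385, 1649 and 1278 FPKM in LKO and 1870.0, 1914 and 1540.1 FPKM in CON, where LKO 2 lay above CON 3. Hgd, the homogentisate dioxygenase, averaged 274 ± 26.4 FPKM in LKO and 269 ± 71.9 FPKM in CON, and Fah, the fumarylacetoacetate hydrolase, 347 ± 5.67 FPKM in LKO and 374 ± 49.7 FPKM in CON (SD, n = 3 each). The 95% intervals of their log2 fold changes were -0.50 to 0.62 for Hgd and -0.51 to 0.32 for Fah.

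Proline breakdown held the log2 fold change farthest from 0 in the module. Aldh4a1, the mitochondrial pyrroline-carboxylate dehydrogenase that makes glutamate from the product of proline oxidation, was at 7.63, 4.15 and 57.95 FPKM in LKO and 117, 79.2 and 68.0 FPKM in CON. The CON mean was 14.9 times the mean of LKO 1 and LKO 2, while LKO 3 was 9.84 times that mean and lay under CON 3. The log2 fold change was -2.65 (SE 0.80, adjusted p = 0.180, limma), and -3.70 without LKO 3 (adjusted p = 0.00298, limma, in a range of 0.00118 to 0.486 over all alternatives). The gene shares exons on the same strand with Gm21969, a predicted protein-coding gene, in the GENCODE M21 annotation, so reads there could be assigned to either. Gm21969 was at 33.5, 37.2 and 20.2 FPKM in LKO and 43.5, 29.9 and 21.3 FPKM in CON. The summed FPKM of both genes was 41.2, 41.3 and 78.2 in LKO and 160.2, 109 and 89.2 in CON, still without overlap. These sums differed between the groups by a smaller factor than Aldh4a1 alone. The size of the fold changes of Aldh4a1 could therefore depend on how the reads were divided, which was not tested. Bckdha, Bhmt, Gls2, Nags and Sds share exonic positions with genes on the opposite strand, and without a stated strand setting such reads cannot be told apart. Among all tested genes, 37 (0.333%) had LKO 1 and LKO 2 at less than 0.2 times the lowest of the other libraries, and Aldh4a1 was the only member of the module among them. Prodh, the proline dehydrogenase before it, was at 29.3, 57.7 and 31.15 FPKM in LKO and 80.05, 63.75 and 38.9 FPKM in CON. There LKO 2, not LKO 3, was the LKO library inside the CON range.

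Of the enzymes of serine, glycine and glyoxylate, Sdsl and Amt had the smallest p and leaned in opposite directions. Sdsl, a serine dehydratase-like enzyme, had the largest positive log2 fold change of the module. It was at 13.8, 11.4 and 8.64 FPKM in LKO and 7.13, 9.25 and 8.60 FPKM in CON, with LKO 1 and LKO 2 above the CON range and LKO 3 inside it (0.38, SE 0.21, adjusted p = 0.299, limma). Amt, the aminomethyltransferase of the glycine cleavage system, was at 12.5, 9.46 and 14.2 FPKM in LKO and 29.3, 20.4 and 15.0 FPKM in CON, without overlap (log2 fold change -0.76, SE 0.27, adjusted p = 0.196, limma). Gldc, the decarboxylase of the same system, averaged 19.3 ± 8.93 FPKM in LKO and 32.5 ± 14.9 FPKM in CON, with overlap. Agxt, the alanine-glyoxylate aminotransferase, was at 208, 195 and 168 FPKM in LKO and 189, 182 and 173 FPKM in CON, within a 95% interval of -0.33 to 0.45 for its log2 fold change. Sds, the serine dehydratase of fasting liver, stood out in a single library, with 133 FPKM in LKO 2 and 47.4 to 81.3 FPKM in the other libraries of both groups.

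In the branched-chain keto acid dehydrogenase complex, the transacylase was without overlap and both decarboxylase subunits overlapped. Dbt, its transacylase core, was at 7.70, 10.9 and 15.1 FPKM in LKO and 26.3, 18.1 and 16.3 FPKM in CON, without overlap (log2 fold change -0.81, SE 0.28, adjusted p = 0.190, limma). Bckdhb, the beta subunit of the decarboxylase, was at 44.5, 44.1 and 33.5 FPKM in LKO and 57.4, 46.55 and 35.65 FPKM in CON, which overlapped. Bckdha, the alpha subunit, averaged 128 ± 13.4 FPKM in LKO and 139.5 ± 10.96 FPKM in CON, and Aass, which opens lysine breakdown, 119 ± 27.1 FPKM in LKO and 121 ± 8.52 FPKM in CON (SD, n = 3 each). The log2 fold changes of Bckdhb, Bckdha and Aass, -0.17, -0.12 and -0.054, were all positive after median-ratio scaling, while that of Dbt was -0.56. Dld, a further subunit of this complex that is outside the module, was at 21.0, 15.9 and 31.6 FPKM in LKO and 42.1, 33.75 and 36.8 FPKM in CON. It was also without overlap (log2 fold change -0.74, SE 0.26, adjusted p = 0.191, limma). The difference between the subunits was not tested.

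Of the methionine cycle and transsulfuration, Gnmt and Cth had no overlap between the groups. Gnmt, the glycine methyltransferase that uses up S-adenosylmethionine, was at 1008, 866 and 1096 FPKM in LKO and 1814, 1730.1 and 1249 FPKM in CON (log2 fold change -0.68, SE 0.23, adjusted p = 0.187, limma). It is the shortest member at 1035 bases, and its log2 fold change was -0.72 with the length trend of each library removed. Cth, the cystathionine gamma-lyase that yields cysteine, was at 179, 171 and 132 FPKM in LKO and 269, 237 and 185 FPKM in CON (log2 fold change -0.51, SE 0.21, adjusted p = 0.217, limma). Mat1a, the liver enzyme that makes S-adenosylmethionine, averaged 1689 ± 362 FPKM in LKO and 1678 ± 292 FPKM in CON (SD, n = 3 each), which gave 0.0018 on the log2 scale with a 95% interval of -0.58 to 0.59. Ahcy, which splits S-adenosylhomocysteine, averaged 817 ± 149 FPKM in LKO and 1127 ± 142 FPKM in CON. Bhmt, which remethylates homocysteine with betaine, averaged 1295 ± 272 FPKM in LKO and 2092 ± 734 FPKM in CON, where CON 1 alone had 2841 FPKM. Cbs, the cystathionine beta-synthase, averaged 112 ± 16.6 FPKM in LKO and 124 ± 21.8 FPKM in CON. All 3 overlapped between the groups.

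**Figure D3:**
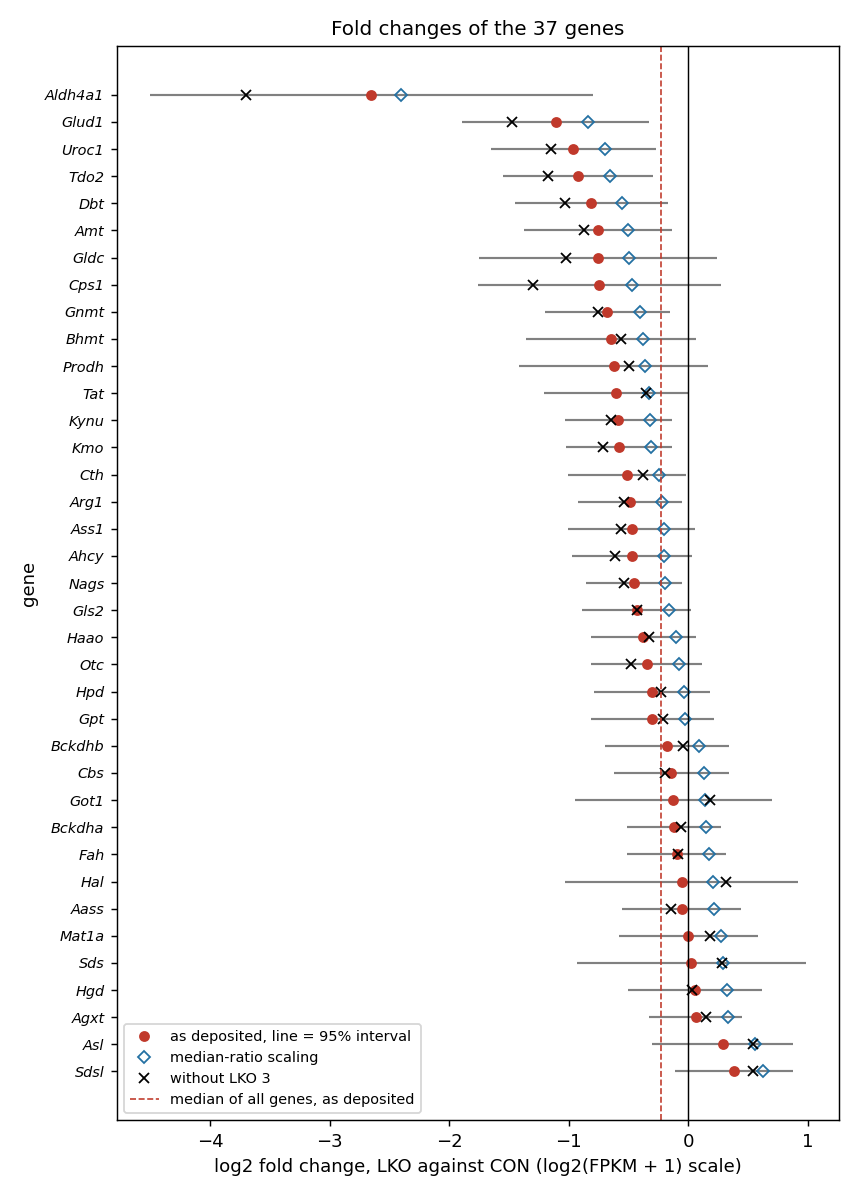
Log2 fold change of LKO against CON for each of the 37 genes (rows), with its 95% interval (line), beside the value after median-ratio scaling (diamond) and without LKO 3 (cross). The dashed line is the median of all tested genes, -0.23. Aldh4a1 is at -2.65, Glud1, Uroc1 and Tdo2 follow at -1.11, -0.96 and -0.93, and Sdsl is the highest at 0.38.

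With LKO 3 left out, 7 members were called lower (limma, adjusted p under 0.05), namely Cps1, Glud1, Uroc1, Tdo2, Kmo, Dbt and Aldh4a1, and 0 higher. In that comparison 19.0% of all genes were called lower and 4.60% higher, so the count of members is near the background. Members with a negative log2 fold change then numbered 29, where 70.2% of all genes were negative. Without LKO 3 the genotype and the sign of the length trend described above cannot be told apart. All 7 genes are longer than 3000 bases, as are 15 of the 37 members. Over the members the Spearman rho between length and log2 fold change was -0.377 (n = 37 genes of the same 6 libraries), and -0.302 over all genes. With the length trend removed and LKO 3 left out, 3 members were called lower (5.61% of all genes) and 0 higher (6.39%). These were Cps1 (log2 fold change -0.83, adjusted p = 0.0310, limma), Glud1 (-1.11, adjusted p = 0.0394) and Aldh4a1 (-3.29, adjusted p = 0.00764). With median-ratio scaling and LKO 3 left out, these 3 and Tdo2 were called lower (9.05% of all genes), and Asl (0.86, adjusted p = 0.0474, limma) and Sdsl (0.84, adjusted p = 0.0355) higher (9.81%). Over all alternatives the adjusted p (limma) ran from 0.0252 to 0.867 for Asl and from 0.00432 to 0.597 for Sdsl. Both of these fits were chosen after the values were seen.

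In 3 lists of other genes of amino acid handling, none passed with all libraries in the fit. For each count at an unadjusted p under 0.05, the share over all tested genes was 18.9% lower and 3.25% higher, and 71.6% of all genes had a negative log2 fold change. Of 57 other catabolic enzymes, 51 were tested, and 0 were called in either direction (limma), with 17 lower and 0 higher at an unadjusted p under 0.05. Their median was -0.40, and -0.13 after median-ratio scaling. The smallest p were those of Ido2, a paralog of indoleamine dioxygenase (11.5, 9.08 and 13.3 FPKM in LKO, against 31.2, 20.4 and 18.3 FPKM in CON), Acad8, the isobutyryl-CoA dehydrogenase of valine breakdown (log2 fold change -0.79), Bhmt2, another betaine-homocysteine-type methyltransferase (-0.67), and Hibch, also of valine breakdown (-0.67). Of 15 carriers and transporters of amino acids, 14 were tested, 0 were called, and 10 were lower and 0 higher at an unadjusted p under 0.05. Their median was -0.53, and -0.33 after scaling, the lowest of the lists on both scales, though lists were not tested against each other. Slc25a15, the mitochondrial ornithine carrier that the urea cycle needs, was at 50.6, 41.8 and 51.9 FPKM in LKO and 91.9, 81.4 and 64.8 FPKM in CON. The groups did not overlap (on the log2 scale -0.70, SE 0.19, adjusted p = 0.179, limma). Slc16a10, an exporter of aromatic amino acids, was at 13.0, 17.2 and 15.4 FPKM in LKO and 26.2, 31.1 and 25.6 FPKM in CON, also without overlap (-0.82, SE 0.18, adjusted p = 0.165, limma). Slc3a1, a subunit of the cystine transporter, and Slc38a4, a transporter of neutral amino acids, had log2 fold changes of -1.75 and -0.85.

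Of 14 regulators of these pathways, 13 were tested, 0 were called, and 5 were lower and 0 higher at an unadjusted p under 0.05 (limma), with a median of -0.47, and -0.25 after median-ratio scaling. Prox1 (log2 fold change -0.89), Cebpa (-0.67), Nr1h4 (-0.62) and Ppara (-0.60), all transcription factors of hepatocytes, had the smallest p and no overlap. Of 10 periportal genes outside the module 0 were called, with a median of -0.38, and of 13 tested pericentral genes 0 were called, with a median of -0.37. At an unadjusted p under 0.05, 1 periportal gene (Ctsc) and 3 pericentral genes (Cyp2e1, Slc1a2 and Gulo) were lower and 0 of either list higher, near the 18.9% lower and 3.25% higher over all genes. Among periportal genes Ctsc, a cathepsin, had a log2 fold change of -0.81 without overlap, while Igf1, the growth factor secreted by liver, was at 670.2, 720.0 and 451 FPKM in LKO and 338, 471 and 426 FPKM in CON. Hsd17b13 and Sult5a1 were at -0.64 and 0.52. Among pericentral genes Slc1a2, a glutamate transporter, Cyp2e1, Gulo, Oat and Rgn did not overlap between the groups, at log2 fold changes of -0.50, -0.64, -0.59, -0.48 and -0.45. Genes lower without overlap were thus 5 of 13 pericentral and 1 of 10 periportal genes, where this held for 24.3% of all genes. The lists share genes, since Slc1a2 also counts among the carriers and transporters, and the pericentral Oat and Glul among the other enzymes.

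Leaving out LKO 3 changed the calls in these lists too. Without it, 14 of the 51 other enzymes, 8 of the 14 carriers and transporters and 6 of the 13 regulators were called lower and 0 higher (limma, adjusted p under 0.05), where 19.0% of all genes were called lower and 4.60% higher. Of the periportal genes Ctsc was then called lower and Igf1 higher, of the pericentral genes Slc1a2 and Gulo lower, and of the markers Apoa1 higher and the macrophage gene Adgre1 lower. With median-ratio scaling as well, the lower calls outside the cell type markers were 5 enzymes (Dld, Acad8, Aldh6a1, Mut and Aldh7a1), 3 carriers and transporters (Slc25a13, Slc25a12 and Slc38a4) and the glucocorticoid receptor Nr3c1, where 9.05% of all genes were called lower, and the higher calls were the enzymes Mat2a and Mcee and again Igf1 (9.81%). With the length trend removed and LKO 3 left out, outside those markers, Dld, Mut, Slc25a13, Slc38a4 and Nr3c1 were called lower (5.61% of all genes) and Mat2a and Igf1 higher (6.39%). Among the markers, Adgre1 was lower with scaling, the stellate genes Dcn and Des were higher in both of these fits, and Spp1, Alas2 and Cela1 were higher with scaling. These counts were chosen after the values were seen.

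**Figure D4:**
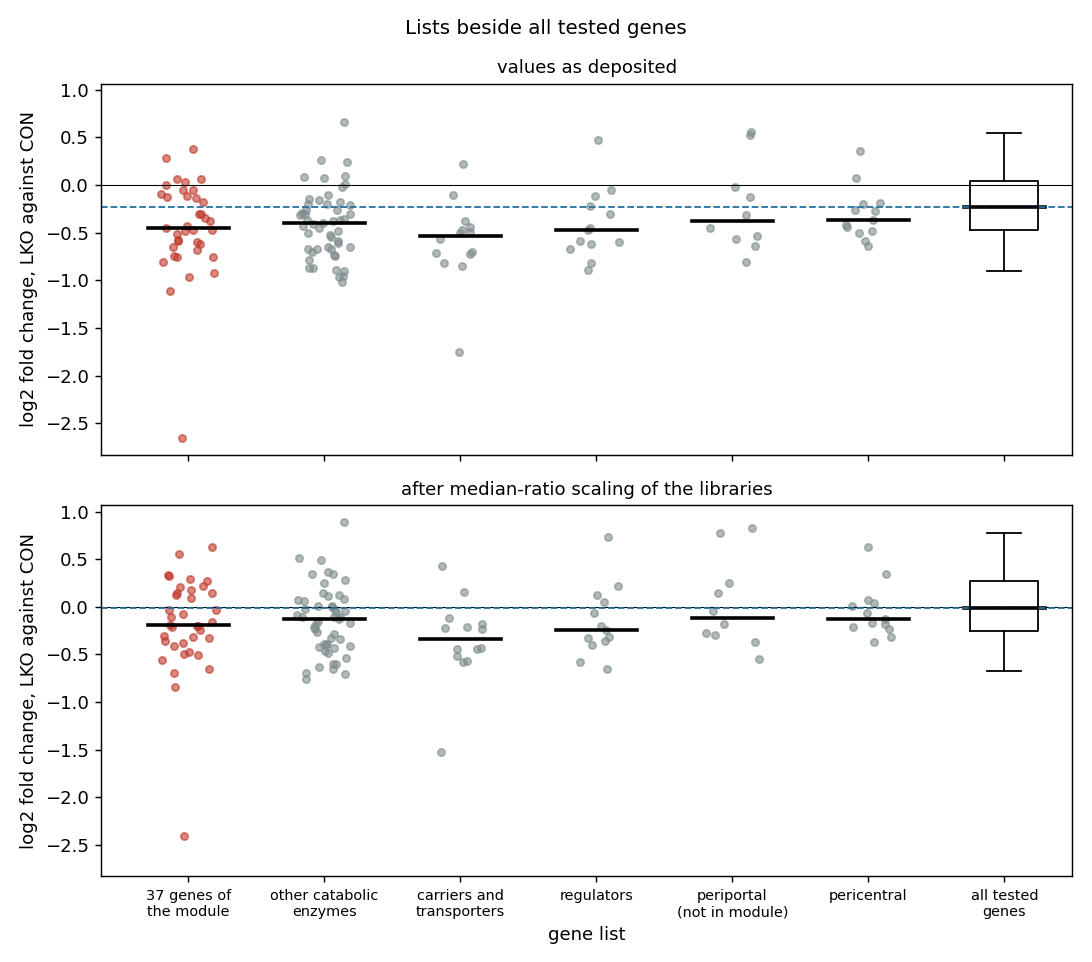
Log2 fold change of LKO against CON for the genes of each list (points), with the list median (bar), beside all tested genes (box from the lower to the upper quartile, whiskers at the 5th and 95th percentile). The upper panel uses the deposited values and the lower panel median-ratio scaled values. The dashed line is the median of all tested genes, and the list medians lie below it on both scales, at -0.45 and -0.19 for the 37 genes.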

How the data were processed

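Liver RNA was measured in 6 libraries, 3 LKO and 3 CON. Per the submitters' processing notes, reads were handled with HISAT2 (an aligner) and StringTie (an assembler and quantifier) on mouse build mm9, and the authors deposited gene FPKM rounded to 2 decimals. Their versions and options, the annotation release and the strand setting were not given in the sources used here. FPKM times gene length was searched for multiples of 1 read over a limited range of steps. The best step of each library held at most 26.2% of values within 0.1 of a multiple, where a single fixed step gives 20% by chance. Smaller steps, which a greater depth would give, were not searched, so the check cannot tell whether whole reads underlie the values. The values are FPKM, so no count model was used, and the depth in reads is unknown. FPKM is relative, so a few very abundant transcripts lower all others of a library.

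Of 56536 lines below the header, 2 held no values. The 11104 genes whose FPKM averaged 1 or more over the libraries were taken to log2(FPKM + 1) and tested in R 4.3.3 with limma 3.58.1 (lmFit, eBayes with trend), two-sided, group as the only term, adjusted by Benjamini-Hochberg over all tested genes with a threshold of 0.05. Fold changes are LKO over CON on that scale, which understates changes of low genes. SE is moderated and SD is on the FPKM scale. All 37 members passed the filter. The fit was tested on simulated data, but no outcome of that test is given here, so nothing is drawn from it. The members and the gene lists were chosen with earlier results of these data known. Values in every library are given for the urea cycle, for the 2 members with the smallest p of each other pathway and for the largest positive fold changes, and in the other lists the 4 genes with the smallest p are named. The alternatives that join the loss of LKO 3 with another scaling were added after seeing the data. Other alternatives were another pseudocount (0.1), no filter or a mean FPKM of at least 5, median-ratio scaling, quantile normalization, rescaling without mitochondrial and Mup genes, removal of each library's length trend (lowess), array weights, a replicate block, and leaving out each library. In GENCODE M21, 6 members share exonic positions with another gene. For Bckdha, Bhmt, Gls2, Nags and Sds these genes are on the opposite strand, and shared reads cannot be told apart without strand information. For Aldh4a1 the other gene is on the same strand, where strand information would not separate the shared reads. The hepatocyte marker Tf was not matched by symbol.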

Additional observations from a re-analysis of the deposited data

How the results depend on the processing

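Over 17 alternatives, 23 of the 37 members kept the sign of their log2 fold change, and the call of 0 members held in all but 4 of them. Without 1 library each in turn, genes called lower numbered 0 to 2115 and higher 0 to 511, members called lower 0 to 7, with the high ends without LKO 3. Genes called lower were 0 without a filter, with a mean FPKM of at least 5, with a pseudocount of 0.1 and with the length trend removed, against 1 as reported. With array weights 4176 genes were called lower and 1688 higher, and 17 members lower and 2 higher, but LKO 1 had a weight of 13.8 and LKO 3 of 0.196, and the estimation of weights stopped before its tolerance was met. Median-ratio scaling gave medians of -0.19 for members and -0.012 for all genes, and removal of the length trend -0.23 and 0.0043. The median of all genes was -0.025 without a filter and -0.019 with quantile normalization. Without LKO 3, median-ratio scaling gave 1005 genes lower and 1089 higher, 4 members lower and 2 higher, and medians of -0.11 and -0.037, and removal of the length trend 623 and 710 genes, 3 members lower, and medians of -0.14 and -0.0069. With mitochondrial and Mup genes left out and the libraries rescaled, the medians were -0.48 and -0.25, and 0 members were called.

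Reversed log2 fold changes were never called. Under median-ratio scaling they were 0.14 for Got1, 0.21 for Hal, 0.17 for Fah, 0.21 for Aass, 0.15 for Bckdha, 0.090 for Bckdhb and 0.13 for Cbs. With the length trend removed they were 0.077 for Got1, 0.30 for Hal, 0.026 for Fah, 0.24 for Aass, 0.060 for Bckdha and 0.22 for Cbs, and with quantile normalization 0.044 for Got1, 0.11 for Hal, 0.065 for Aass and -0.057 for Mat1a. Array weights gave 0.30 for Got1, 0.45 for Hal, -0.28 for Sds, 0.17 for Aass, 0.055 for Bckdhb and 0.065 for Cbs, and rescaling without mitochondrial and Mup genes -0.025 for Mat1a. Without LKO 3, median-ratio scaling gave 0.11 for Gpt, 0.50 for Got1, 0.63 for Hal, 0.096 for Hpd, 0.23 for Fah, 0.17 for Aass, 0.26 for Bckdha, 0.27 for Bckdhb and 0.12 for Cbs, and removal of the length trend 0.11 for Gpt, 0.42 for Got1, 0.78 for Hal, 0.038 for Fah, 0.011 for Haao, 0.23 for Aass, 0.15 for Bckdha, 0.043 for Bckdhb and 0.29 for Cbs. These last 2 alternatives were added after seeing the data. Leaving out 1 library at a time gave ranges across 0 of -0.17 to 0.15 for Aass, -0.0031 to 0.15 for Agxt, -0.37 to 0.19 for Got1, -0.38 to 0.31 for Hal, -0.19 to 0.19 for Hgd, -0.15 to 0.19 for Mat1a and -0.45 to 0.29 for Sds. The cause was not tested.

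With the library number as a replicate block, 0 genes and 0 members were called. Same-numbered libraries correlated at -0.0460, 0.168 and 0.0701 in their deviations from the group means, which did not meet the bar for pairing (every pair over 0.1). LKO 2 and CON 2, and LKO 3 and CON 3, correlated best with each other, while LKO 1 and CON 1 did not, and whether the number marks a batch cannot be told from these libraries. Exact permutation of 3 against 3 libraries allows no p below 0.1. The depth in reads is unknown, so counting error could not be given.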
